A study of Mus musculus with 24 samples.

Results

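Adipogenesis, the making of fat cells, is driven by a short cascade of transcription factors. Here 10 genes of such factors were followed through fat labelled as inguinal, a subcutaneous depot, in 4 mouse strains on 2 diets. The genes were Pparg, Cebpa, Cebpb, Cebpd, Ebf1, Ebf2, Klf6, Klf14, Klf15 and Zfp423. They were chosen by name and matched by symbol, and all 10 of 10 were found among the 37991 genes of the count table and passed the filter that left 20035 genes for testing. As background, Cebpb and Cebpd, which encode C/EBP beta and delta, act early and switch on Pparg and Cebpa. Pparg, the nuclear receptor at the head of the programme, and Cebpa, which encodes C/EBP alpha, then keep each other on and drive the genes of lipid storage, which is why both remain high in mature fat. Ebf1 and Ebf2 (early B-cell factors) and Zfp423 (a zinc finger factor) are known in committed preadipocytes, Klf6 and Klf15 are Krüppel-like factors that favour differentiation, and Klf14 is a Krüppel-like factor with a single exon, imprinted and expressed from the maternal copy, whose human counterpart lies at a locus tied to insulin sensitivity and fat cell size.

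The 24 libraries were RNA-seq libraries of polyadenylated RNA, each labelled as inguinal fat of a female mouse aged 26 weeks, with 3 mice in each of 8 groups. The strains were C57BL/6J, NZO/HiLtJ (an obesity-prone strain), and CAST/EiJ and WSB/EiJ (both wild-derived). Mice of each strain ate either a standard diet, in which fat gave 17% of calories, or a diet rich in fat (45% of calories) and sucrose (34% by weight), called the high-fat diet below. The comparisons were high-fat against standard diet within each strain and averaged over strains, and the strains against each other with both diets weighted equally.

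Library totals ran from 47651641 to 84009032 counts. Levels are given as normalised CPM, counts scaled to a common library size, and differences as log2 fold changes ± SE from 1 model over all groups, with a Benjamini-Hochberg adjusted p below 0.05 over all genes tested counted as passing. CAST/EiJ high-fat replicate 1 stood apart from the other libraries. Its 5 adipocyte markers (Adipoq, Plin1, Fabp4, Cidec and Lipe) summed to 57.3 CPM, against 5340 to 16100 CPM in the other 23 libraries, while 6 smooth muscle markers summed to 12000 CPM and 7 epithelial markers to 1010 CPM. This library also widened the common spread of the model, with a biological coefficient of variation of 40.1% with it and 32.9% without it, so the counts of members that passed are given with all 24 libraries and again with the 23 that remain. The 3 WSB/EiJ high-fat libraries held 236 to 878 CPM of epithelial markers and 1270 to 5460 CPM of smooth muscle markers, against 20.3 to 48.6 and 138 to 894 CPM on the standard diet. Skeletal muscle markers ran from 7.3 to 4490 CPM in CAST/EiJ standard libraries (median 37.6), and reached at most 95.5 CPM in the other groups. Liver markers ran from 159 to 1490 CPM in NZO/HiLtJ standard and from 49.8 to 715 CPM in CAST/EiJ standard libraries, against 8.64 to 323 CPM in the other groups. The part of both in the members' levels was not tested. Mesothelium markers (Msln, Upk3b, Wt1, Lrrn4 and Krt19) were found in every group and differed by strain. They summed to 44.4 to 72.1 CPM in NZO/HiLtJ, 122 to 334 in WSB/EiJ, 194 to 392 in C57BL/6J and 198 to 376 in CAST/EiJ. Their part in the members' strain differences was not tested. In bulk tissue, fewer cells of a type and less RNA per cell cannot be told apart.

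**Figure D1:**
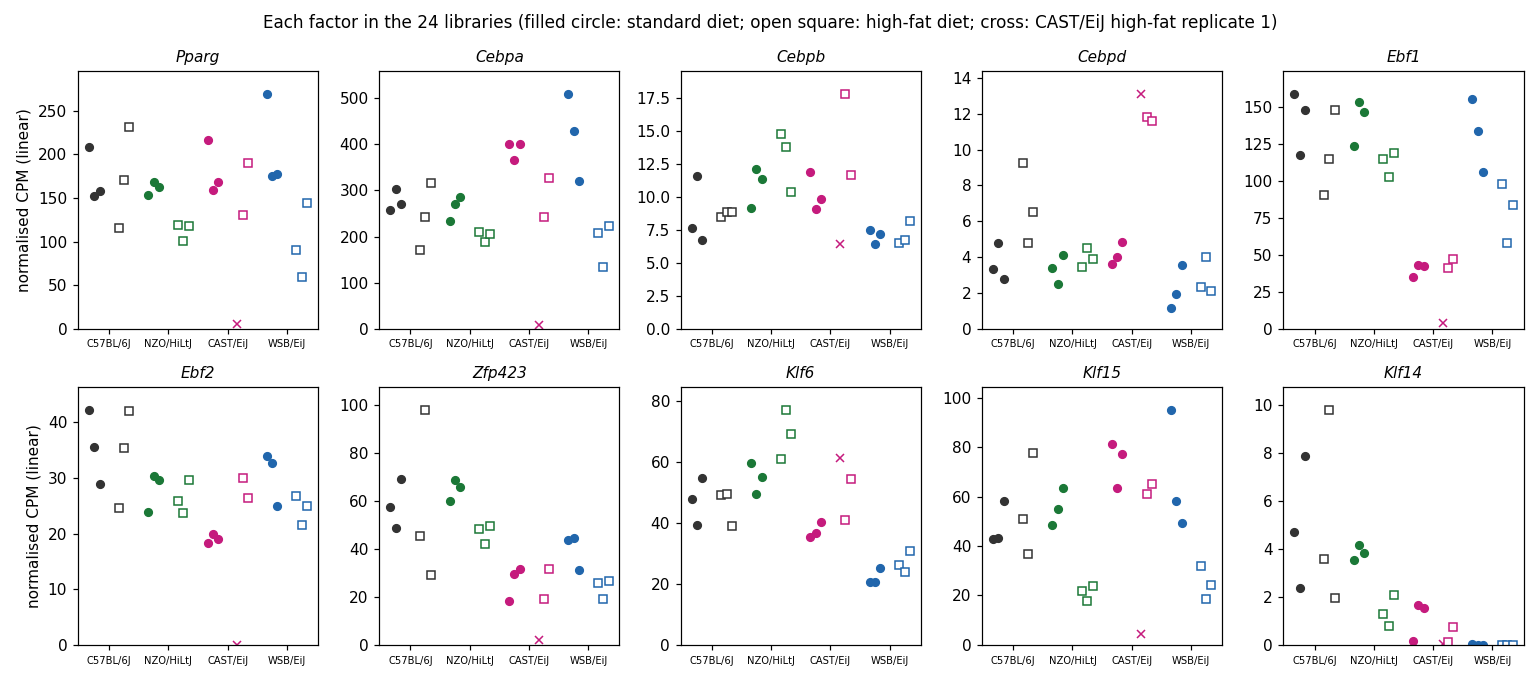
Normalised CPM (linear axis from 0) of each of the 10 factors in the 24 libraries, by strain, with 1 point per library. CAST/EiJ high-fat replicate 1 (cross) is near 0 for Pparg, Cebpa, Ebf2 and Klf15 but among the highest for Cebpd and Klf6, and Klf14 is near 0 in all 6 WSB/EiJ libraries.

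Pparg and Cebpa were the most abundant members. Per kilobase of exon (GENCODE M21 gene models, which are not the annotation of the counts), their median levels over 23 libraries were 53.8 CPM per kb for Pparg and 102 CPM per kb for Cebpa. On the same scale the medians were 18.2 for Klf15, 11.8 for Ebf1, 9.34 for Klf6, 7.77 for Zfp423, 6.02 for Cebpb, 3.87 for Ebf2, 1.05 for Cebpd and 0.501 for Klf14. The ranges over libraries of neighbours in this order overlapped. Cebpa, for example, ran from 50.8 to 193 CPM per kb and Pparg from 20.2 to 91.1.

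Promoter windows of the members that the diet comparisons turn on are shown here because the encoded factors are known to bind one another's genes. Windows run from 250 bases before to 50 after a transcription start and come from RefSeq on GRCm38.p6. They were found for 7 of the 10 members, with 11 start sites in all, for Pparg, Cebpa, Cebpb, Ebf1, Klf6, Klf15 and Zfp423. The search covered both strands for TTNNGNAA (C/EBP), CCNCNCCC (KLF) and AGGTCA (a nuclear receptor hexamer). Capitals mark C/EBP and KLF matches, which do not overlap in these windows. The Pparg window is at chr6:115421816-115422115 (plus strand, the last of 3 start sites), Cebpa at chr7:35119043-35119342 (plus strand), Klf15 at chr6:90462326-90462625 (plus strand) and Klf6 at chr13:5861239-5861538 (plus strand).
Pparg: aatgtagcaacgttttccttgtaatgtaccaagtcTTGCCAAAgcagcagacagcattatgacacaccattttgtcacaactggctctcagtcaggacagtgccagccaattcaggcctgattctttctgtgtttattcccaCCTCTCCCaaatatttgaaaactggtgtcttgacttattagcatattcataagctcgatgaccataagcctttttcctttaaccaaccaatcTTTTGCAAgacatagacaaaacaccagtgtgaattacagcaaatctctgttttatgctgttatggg
Cebpa: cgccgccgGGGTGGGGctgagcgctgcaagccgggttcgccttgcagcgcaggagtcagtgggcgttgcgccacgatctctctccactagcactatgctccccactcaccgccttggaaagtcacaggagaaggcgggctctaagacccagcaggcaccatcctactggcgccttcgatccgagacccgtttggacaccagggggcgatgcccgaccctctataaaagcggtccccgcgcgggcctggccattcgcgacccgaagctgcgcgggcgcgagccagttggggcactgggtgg
Klf15: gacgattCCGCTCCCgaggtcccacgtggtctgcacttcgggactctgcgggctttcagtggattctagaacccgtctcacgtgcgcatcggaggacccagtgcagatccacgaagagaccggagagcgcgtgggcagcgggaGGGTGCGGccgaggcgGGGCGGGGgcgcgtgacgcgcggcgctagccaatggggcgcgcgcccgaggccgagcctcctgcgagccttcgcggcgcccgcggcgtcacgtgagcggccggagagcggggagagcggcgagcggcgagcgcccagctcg
Klf6: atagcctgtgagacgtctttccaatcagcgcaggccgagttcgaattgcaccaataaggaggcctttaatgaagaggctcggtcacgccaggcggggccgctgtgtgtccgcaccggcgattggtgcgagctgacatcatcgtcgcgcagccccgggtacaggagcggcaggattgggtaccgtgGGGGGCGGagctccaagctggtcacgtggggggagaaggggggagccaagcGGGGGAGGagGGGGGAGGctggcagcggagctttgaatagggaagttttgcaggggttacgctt
The Pparg window held 2 matches to the C/EBP letters, starting 215 and 16 bases before the transcription start, and the windows of Cebpa, Klf15 and Klf6 held 0. The windows of the other 2 Pparg starts held 0 matches to the C/EBP letters and 1 nuclear receptor hexamer each, and the window shown held 0 of the hexamer. The C/EBP letters were in 4 of the 11 member windows and in 40.7% of all 32851 windows of this length. The KLF letters were in 11 of the 11 member windows and in 49.5% of all windows, with 1 match for Cebpa, 1 for this Pparg start, 3 for Klf15 and 3 for Klf6. The nuclear receptor hexamer was in 3 of 11 (16.3% of all windows). These are matches of letters, not measured sites, and several windows belong to 1 gene.

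On the high-fat diet, WSB/EiJ mice had lower Pparg, Cebpa, Ebf1 and Klf15 transcript levels than on the standard diet, and none of the 3 libraries on 1 diet overlapped the other diet for these 4 genes or for Zfp423, which is given below. The share of all genes without such overlap was not counted, so the separation is given as a description only. With all 24 libraries, 0 of 10 members passed in WSB/EiJ by edgeR, where 21.5% of all genes passed. At an unadjusted p below 0.05 the count was 1, and it was 1 (Klf15) by DESeq2 and 0 by limma-voom after adjustment. Without CAST/EiJ high-fat replicate 1, 4 of 10 passed, all lower, against 39.8% of all genes. The edgeR count was thus below the share over all genes with all libraries and at that share without this library. Neither count says anything particular to the members. The members' median log2 change in WSB/EiJ was -0.52, against 0.07 over all genes tested.

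Pparg (ENSMUSG00000000440) was at 269, 175 and 177 CPM in the WSB/EiJ mice on the standard diet and at 90.2, 59.6 and 144 CPM on the high-fat diet. The 3 high-fat values lay below the 3 standard values. The log2 change was -1.08 ± 0.65 with all libraries (edgeR quasi-likelihood adjusted p = 0.234) and -1.08 ± 0.28 without CAST/EiJ high-fat replicate 1 (edgeR adjusted p = 0.0071). In NZO/HiLtJ, Pparg was at 153, 168 and 163 CPM on the standard diet and 119, 101 and 118 CPM under the high-fat diet. These groups did not overlap either, but the change of -0.52 ± 0.28 without that library did not pass (edgeR adjusted p = 0.275). C57BL/6J mice spanned 152 to 209 CPM on the standard diet and 116 to 231 CPM on the high-fat diet, with a log2 change of 0.00 ± 0.64. In CAST/EiJ, the values were 217, 159 and 168 CPM on the standard diet and 5.43, 130 and 190 CPM under the high-fat diet, where the lowest belongs to replicate 1.

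Cebpa (ENSMUSG00000034957) had the same ordering in WSB/EiJ, with 509, 430 and 320 CPM on the standard diet and 207, 134 and 223 CPM under the high-fat diet. Its log2 change was -1.16 ± 0.64 with all libraries (edgeR adjusted p = 0.192) and -1.16 ± 0.22 without CAST/EiJ high-fat replicate 1 (edgeR adjusted p = 0.000804). CAST/EiJ mice held 400, 366 and 401 CPM on the standard diet and 8.98, 242 and 328 CPM under the high-fat diet. Even without the lowest library the CAST/EiJ diets did not overlap, and the change was -0.46 ± 0.24 (edgeR adjusted p = 0.435). NZO/HiLtJ values of 234, 271 and 286 CPM on the standard diet stood above 210, 189 and 205 CPM on the high-fat diet, a log2 difference of -0.38 ± 0.21 that did not pass (edgeR adjusted p = 0.285). C57BL/6J overlapped, with 257 to 304 against 170 to 317 CPM.

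Klf15 (ENSMUSG00000030087), a Krüppel-like factor known to act on Pparg and on glucose transport in fat cells, was lower on the high-fat diet in both NZO/HiLtJ and WSB/EiJ. NZO/HiLtJ mice had 48.6, 55.0 and 63.5 CPM on the standard diet and 21.9, 17.8 and 23.8 CPM under the high-fat diet. WSB/EiJ mice had 94.9, 58.1 and 49.2 CPM on the standard diet and 32.1, 18.5 and 24.3 CPM under the high-fat diet. In each strain every high-fat library lay below every standard library. Without CAST/EiJ high-fat replicate 1 the log2 change was -1.39 ± 0.27 in NZO/HiLtJ (edgeR adjusted p = 0.00284) and -1.44 ± 0.27 in WSB/EiJ (edgeR adjusted p = 0.00086). With all libraries the adjusted p values from edgeR were 0.202 and 0.0712. C57BL/6J mice did not separate, at 42.9, 43.4 and 58.3 against 50.8, 36.8 and 77.6 CPM, with a log2 difference of 0.19 ± 0.27 without that library. CAST/EiJ mice had 81.5, 63.7 and 77.4 CPM on the standard diet and 4.59, 61.1 and 65.3 CPM under the high-fat diet. The test of whether the diet effect differed between strains (3 degrees of freedom) passed for Klf15 alone among the 10 members without CAST/EiJ high-fat replicate 1 (edgeR adjusted p = 0.0126), where 17.6% of all genes passed. With all libraries it passed for 0 of 10 members by edgeR (3.08% of all genes), with 0 at an unadjusted p below 0.05 and 0 by DESeq2 and by limma-voom, and the adjusted p from edgeR for Klf15 was 0.392.

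Counting NZO/HiLtJ as a whole, 0 of 10 members passed with all libraries by edgeR, DESeq2 and limma-voom (4.89% of all genes by edgeR, and 2 members at an unadjusted p below 0.05) and 1 of 10, Klf15, without CAST/EiJ high-fat replicate 1 (11.7% of all genes). A fit restricted to the 6 NZO/HiLtJ libraries passed 7 of 10 (32.7% of the genes tested there), namely Pparg, Cebpa, Ebf1, Klf14, Klf15 and Zfp423 lower and Klf6 higher. In this strain the sum of 8 macrophage markers was 695 to 1080 CPM on the standard diet and 3020 to 4240 CPM on the high-fat diet, and its part in the members' differences was not tested.

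**Figure D2:**
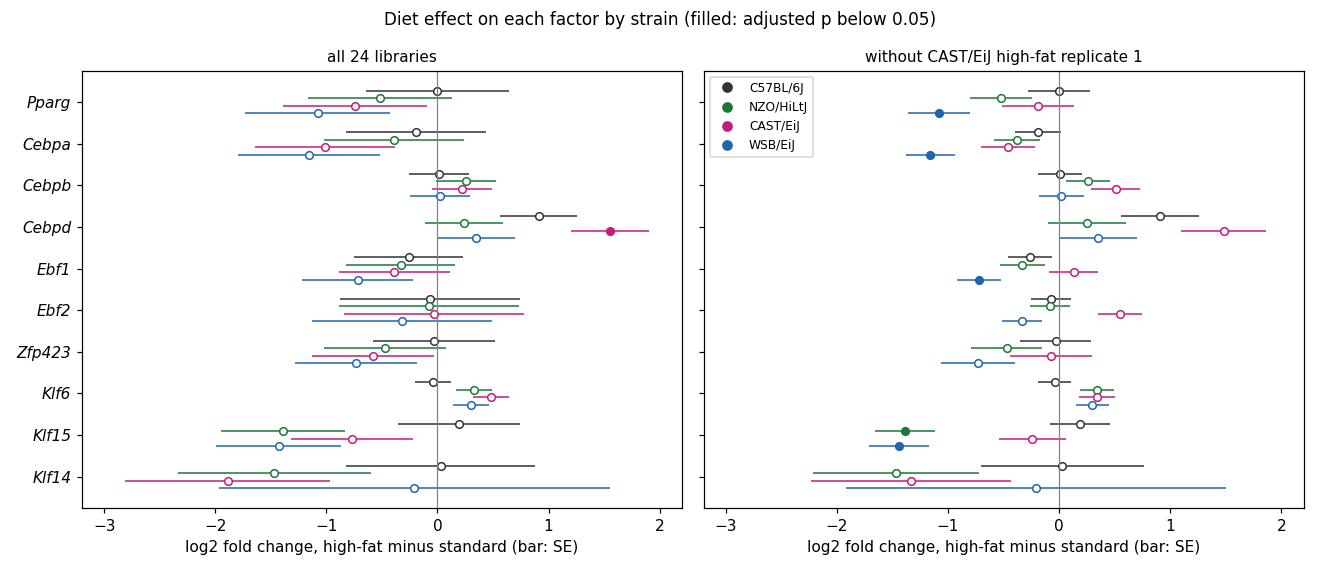
Log2 fold change of each factor, high-fat minus standard diet, in each strain (bars are SE of the model, filled points passed at an adjusted p below 0.05), with all 24 libraries on the left and 23 on the right. Most estimates outside CAST/EiJ stay in place between the panels while their bars shorten, and the 4 WSB/EiJ points for Pparg, Cebpa, Ebf1 and Klf15 pass on the right.

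The adipocyte markers were lower on the high-fat diet in WSB/EiJ and NZO/HiLtJ. Their sum was 10700 to 12800 CPM in WSB/EiJ on the standard diet and 5340 to 7800 CPM on the high-fat diet, and in NZO/HiLtJ 13600 to 14000 and 8380 to 10500 CPM. In C57BL/6J it was 11300 to 12200 and 7460 to 11600 CPM. In CAST/EiJ it was 14600 to 15400 CPM on the standard diet and 57.3, 11400 and 16100 CPM under the high-fat diet. The part of adipocyte content in the lower Pparg, Cebpa, Ebf1 and Klf15 was not tested, nor was that of the epithelial and smooth muscle transcripts in the WSB/EiJ high-fat libraries, of which replicate 2 also held 3180 CPM of brain markers and replicate 3 held 920 CPM of urothelium markers. Of 20 genes known as targets of PPARG or C/EBPA in fat cells, 2 fell in WSB/EiJ with all libraries, below the share over all genes (21.5%), and 16 fell without CAST/EiJ high-fat replicate 1 (39.8% of all genes). Their median log2 change was -1.06 in both fits. The list of 20 holds all of the adipocyte markers summed above, so it is not a separate measure from that sum. The 16 included Cidec, a lipid droplet protein (-1.40 ± 0.19), Retn, which encodes resistin (-1.76 ± 0.24), Agpat2, an enzyme of triglyceride synthesis (-1.67 ± 0.26), and Dgat2, which makes the final step of that synthesis (-2.13 ± 0.35).

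**Figure D3:**
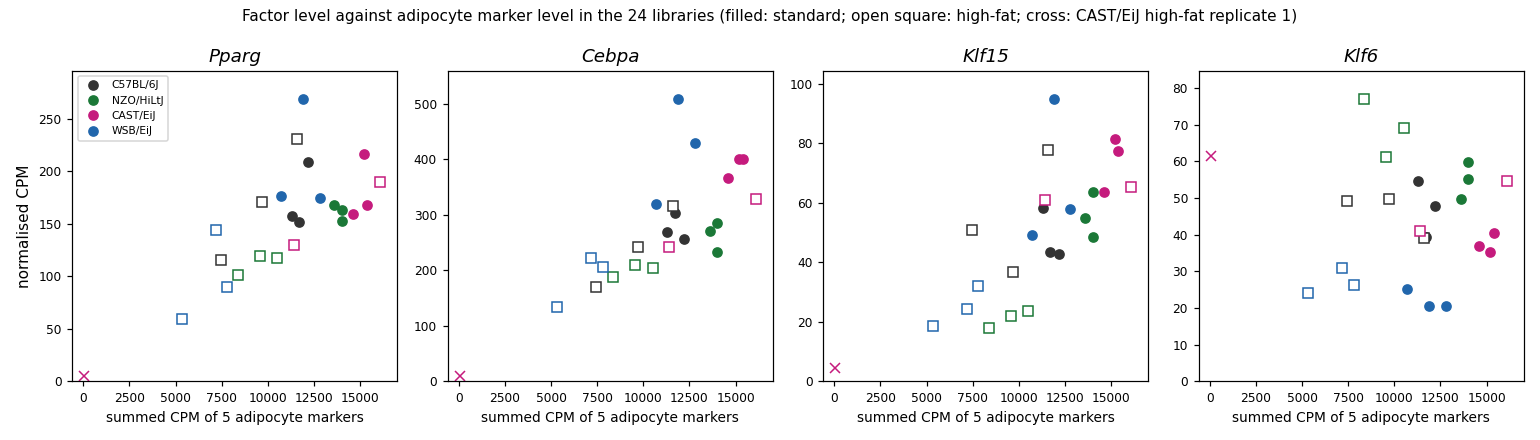
Normalised CPM of Pparg, Cebpa, Klf15 and Klf6 (y axis) against the summed CPM of 5 adipocyte markers (x axis), with 1 point per library. The WSB/EiJ high-fat libraries lie between 5340 and 7800 on the x axis and low for Pparg, Cebpa and Klf15, and WSB/EiJ is low for Klf6 on both diets.

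Averaged over the 4 strains, 3 of 10 members passed with all libraries (28.9% of all genes). Cebpd and Klf6 rose on the high-fat diet, by 0.76 ± 0.17 (edgeR adjusted p = 0.00736) and 0.27 ± 0.08 (edgeR adjusted p = 0.0202) on the log2 scale, and Klf15 fell by 0.85 ± 0.27 (edgeR adjusted p = 0.0304). The Klf15 call was lost without any 1 of 7 other libraries, with adjusted p values up to 0.061. Without CAST/EiJ high-fat replicate 1, 6 of 10 passed (28.9% of all genes), the same 3 together with Pparg (-0.45 ± 0.15), Cebpa (-0.55 ± 0.11) and Ebf1 (-0.30 ± 0.10). Cebpd and Klf6 passed in all 29 alternatives.

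Cebpd (ENSMUSG00000071637) had the largest rise of the 10 members in the CAST/EiJ diet comparison, at 3.59, 4.02 and 4.84 CPM on the standard diet and 13.1, 11.8 and 11.6 CPM under the high-fat diet. The diets did not overlap, and the library that stood apart lay close to the other high-fat libraries here. It was the 1 member of 10 that passed in CAST/EiJ with all libraries (4.87% of all genes), with a log2 change of 1.55 ± 0.35 (edgeR adjusted p = 0.0369). Without replicate 1 the change was 1.48 ± 0.38 and did not pass (edgeR adjusted p = 0.0996), and 0 of 10 members passed by edgeR (0.304% of all genes), with 3 at an unadjusted p below 0.05. The call was lost in 14 of 31 alternatives. C57BL/6J mice had 3.36, 4.76 and 2.80 CPM on the standard diet and 9.24, 4.77 and 6.54 CPM under the high-fat diet. The highest standard and lowest high-fat values, 4.76 and 4.77 CPM, were nearly equal, so these diets were not clearly separated. In C57BL/6J 0 of 10 members passed by edgeR, DESeq2 or limma-voom with all libraries (0.00998% of all genes by edgeR, and 1 member at an unadjusted p below 0.05) or by edgeR without CAST/EiJ high-fat replicate 1 (0.103% of all genes). In NZO/HiLtJ (2.52 to 4.10 against 3.44 to 4.52 CPM) and WSB/EiJ (1.13 to 3.55 against 2.08 to 4.03 CPM) the diets overlapped. The test of a strain-dependent diet effect did not pass for Cebpd (edgeR adjusted p = 0.237).

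Cebpb (ENSMUSG00000056501), the other early C/EBP gene, showed no diet difference that passed. Its range was 6.74 to 11.6 CPM on the standard diet and 8.50 to 8.87 CPM on the high-fat diet in C57BL/6J, and the average log2 change was 0.13 ± 0.13. The strains differed more. WSB/EiJ libraries held 6.42 to 8.21 CPM on both diets, below all 6 NZO/HiLtJ libraries at 9.17 to 14.8 CPM, a log2 difference of -0.74 ± 0.19 (edgeR adjusted p = 0.00388).

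Klf6 (ENSMUSG00000000078), which is known to repress the preadipocyte gene Dlk1, was higher on the high-fat diet in the average and lowest in WSB/EiJ. The standard-diet values were 20.5, 20.6 and 25.1 CPM for WSB/EiJ, 35.3, 36.8 and 40.5 CPM for CAST/EiJ, 47.8, 39.5 and 54.7 CPM in C57BL/6J and 59.7, 49.6 and 55.1 CPM in NZO/HiLtJ. The high-fat values were 26.4, 24.1 and 30.9 CPM for WSB/EiJ, 61.4, 41.0 and 54.6 CPM for CAST/EiJ, 49.3, 49.6 and 39.2 CPM in C57BL/6J and 61.1, 77.0 and 69.2 CPM in NZO/HiLtJ. All 6 WSB/EiJ libraries lay below all 18 others. WSB/EiJ differed from C57BL/6J by -0.93 ± 0.11 (edgeR adjusted p = 6e-06), from NZO/HiLtJ by -1.33 ± 0.11 (edgeR adjusted p = 4.11e-08) and from CAST/EiJ by -0.86 ± 0.11 (edgeR adjusted p = 6.49e-06), and all 3 passed in every alternative. By edgeR, no diet change of Klf6 within a strain passed with all libraries or without CAST/EiJ high-fat replicate 1, with log2 changes from -0.04 ± 0.16 in C57BL/6J to 0.48 ± 0.16 in CAST/EiJ. The CAST/EiJ change passed by DESeq2 with all libraries (0.47, DESeq2 adjusted p = 0.0339) and by edgeR without high-fat replicate 2, the lowest of its group (0.61, edgeR adjusted p = 0.0171).

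Klf14 (ENSMUSG00000073209) was close to absent from WSB/EiJ fat. The 3 WSB/EiJ libraries on the standard diet held 1, 0 and 1 reads of Klf14 and the 3 on the high-fat diet 1, 1 and 0. C57BL/6J libraries held 349, 180 and 560 reads on the standard diet and 278, 535 and 125 on the high-fat diet. NZO/HiLtJ libraries held 263, 349 and 291 reads on the standard diet and 93, 58 and 150 on the high-fat diet. CAST/EiJ libraries lay between, with 8, 100 and 94 reads on the standard diet and 2, 7 and 35 on the high-fat diet. No WSB/EiJ library overlapped any library of another strain, and all C57BL/6J libraries were above all CAST/EiJ libraries.

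Pooled over both diets, the Klf14 level in C57BL/6J was 501 times that in WSB/EiJ (95% interval 195 to 1840, counting error only), in NZO/HiLtJ 274 times (107 to 1010) and in CAST/EiJ 72.5 times (28 to 268), against 4 WSB/EiJ reads in all. The fitted log2 differences were -8.77 ± 0.94 from C57BL/6J (edgeR adjusted p = 1.78e-06), -7.64 ± 0.92 from NZO/HiLtJ (edgeR adjusted p = 3.38e-06) and -5.64 ± 0.91 from CAST/EiJ (edgeR adjusted p = 8.12e-05). With so few reads in WSB/EiJ these fitted values depend on the model and set no bound. All 3 passed in every alternative. CAST/EiJ was below C57BL/6J by 3.13 ± 0.66 on the log2 scale (edgeR adjusted p = 0.000998) and below NZO/HiLtJ by 2.0 ± 0.64 (edgeR adjusted p = 0.014). The genome builds named by the submitters are of C57BL/6J, and the part of strain variants in the counts of the other strains was not tested. None of the 3007 windows of 50 bases in the longest GENCODE M21 transcript of Klf14 occurs in a transcript of another gene.

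**Figure D4:**
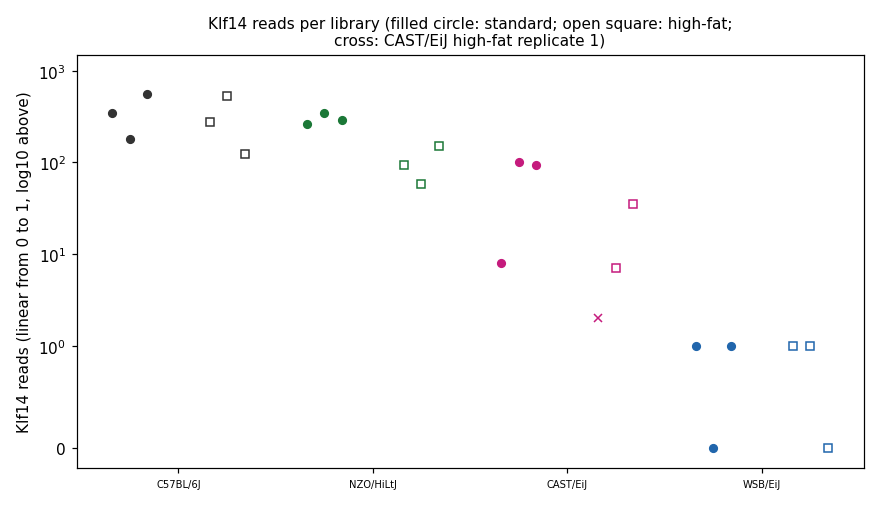
Klf14 reads in each library (y axis linear from 0 to 1 and log10 above) by strain and diet. The 6 WSB/EiJ libraries hold 0 or 1 read, CAST/EiJ 2 to 100, NZO/HiLtJ 58 to 349 and C57BL/6J 125 to 560.

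Within NZO/HiLtJ, Klf14 was at 3.55, 4.18 and 3.81 CPM on the standard diet and at 1.27, 0.778 and 2.10 CPM on the high-fat diet. The diets did not overlap, but the log2 change of -1.47 ± 0.87 did not pass (edgeR adjusted p = 0.46). C57BL/6J values ran from 2.37 to 7.88 CPM on the standard diet and from 1.96 to 9.77 CPM on the high-fat diet, so that mice of 1 group differed more than the group means of 4.99 ± 2.76 and 5.10 ± 4.12 CPM (SD, n = 3). In CAST/EiJ the change was -1.89 ± 0.92 with all libraries (edgeR adjusted p = 0.181), and it passed only when high-fat replicate 3, the highest of its group, was left out (edgeR adjusted p = 0.0194).

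Ebf1 (ENSMUSG00000057098) was lowest in CAST/EiJ on both diets. CAST/EiJ mice had 34.9, 43.5 and 42.6 CPM on the standard diet and 3.83, 41.4 and 47.5 CPM under the high-fat diet. The other strains ran from 58.4 CPM in a WSB/EiJ high-fat library to 159 CPM in a C57BL/6J standard library, so no CAST/EiJ library reached them. The log2 difference from C57BL/6J was -1.87 ± 0.36 (edgeR adjusted p = 0.000433), and -1.60 ± 0.15 without the library that stood apart (edgeR adjusted p = 1.58e-07). The difference from NZO/HiLtJ was -1.84 ± 0.36 (edgeR adjusted p = 0.00036). In WSB/EiJ, Ebf1 was at 156, 134 and 106 CPM on the standard diet and 98.4, 58.4 and 84 CPM under the high-fat diet, a change of -0.72 ± 0.20 without that library (edgeR adjusted p = 0.00859).

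Ebf2 (ENSMUSG00000022053), known from brown and beige fat precursors as well, was at 18.3, 20 and 19.1 CPM in CAST/EiJ on the standard diet. On the high-fat diet it was at 0.0673 CPM in replicate 1 and at 30 and 26.3 CPM in the others. It was at 28.9 to 42.1 CPM in C57BL/6J on the standard diet. By edgeR, the CAST/EiJ difference from C57BL/6J did not pass with all libraries (-0.87 ± 0.58, edgeR adjusted p = 0.246) and passed without replicate 1 (-0.57 ± 0.13, edgeR adjusted p = 0.00189). By limma-voom it passed with all libraries (-2.23, limma-voom adjusted p = 0.0223). Its diet change averaged -0.13 ± 0.40.

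Zfp423 (ENSMUSG00000045333) was lower in CAST/EiJ than in C57BL/6J and NZO/HiLtJ. CAST/EiJ mice had 18.1, 29.5 and 31.6 CPM on the standard diet and 2.24, 19.0 and 31.8 CPM under the high-fat diet. NZO/HiLtJ mice had 59.8, 68.6 and 65.8 CPM and 48.2, 42.0 and 49.7 CPM, all above CAST/EiJ. C57BL/6J mice on the high-fat diet were spread widely, at 45.4, 97.7 and 29.1 CPM, and overlapped with CAST/EiJ. The log2 differences were -1.42 ± 0.40 from C57BL/6J (edgeR adjusted p = 0.00821) and -1.35 ± 0.40 from NZO/HiLtJ (edgeR adjusted p = 0.00847). WSB/EiJ mice had 43.6, 44.4 and 31.2 CPM on the standard diet and 25.7, 19.3 and 26.8 CPM under the high-fat diet. These diets did not overlap, but the log2 change of -0.73 ± 0.55 did not pass (edgeR adjusted p = 0.345, and 0.0839 without CAST/EiJ high-fat replicate 1). WSB/EiJ was below C57BL/6J by 0.90 ± 0.23 only without CAST/EiJ high-fat replicate 1 (edgeR adjusted p = 0.00501, against 0.0886 with it). The 10 fat progenitor markers moved with strain as well, summing to 657 to 1040 CPM in CAST/EiJ, 917 to 1370 CPM in WSB/EiJ, 1580 to 1760 CPM in NZO/HiLtJ and 1500 to 1950 CPM in C57BL/6J. In WSB/EiJ, Ebf1 was at 58.4 to 156 CPM, above all CAST/EiJ libraries. The part of the progenitor markers in the Ebf1 and Zfp423 differences was not tested.

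**Figure D5:**
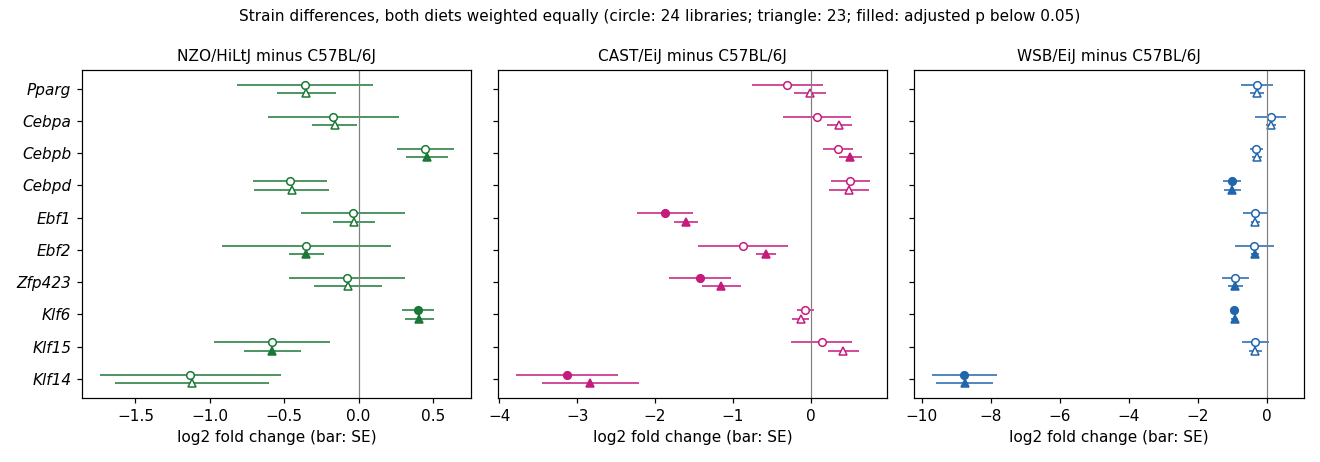
Log2 fold change of each factor against C57BL/6J for the other 3 strains, both diets weighted equally (bars are SE, circles 24 libraries, triangles 23, filled where the adjusted p was below 0.05). Each panel has its own x axis, and the Klf14 points at -3.13 in CAST/EiJ and -8.77 in WSB/EiJ lie farthest from 0.

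Across the strains, 6 of 10 members differed in the joint test with all libraries, namely Cebpb, Cebpd, Ebf1, Klf6, Klf14 and Zfp423, against 68.2% of all genes. Without CAST/EiJ high-fat replicate 1 all members but Pparg passed, 9 of 10, against 80% of all genes. These shares are near the background, so the counts say nothing particular to the members. Between pairs of strains, the counts with all libraries and without that library were 1 and 4 of 10 for NZO/HiLtJ against C57BL/6J (23.4% and 35% of all genes), 3 and 5 for CAST/EiJ against C57BL/6J (39% and 48.8%) and 3 and 5 for WSB/EiJ against C57BL/6J (29.5% and 42.8%). They were 5 and 7 for CAST/EiJ against NZO/HiLtJ (51.1% and 58%), 3 and 4 for WSB/EiJ against NZO/HiLtJ (45.6% and 56.7%) and 5 and 6 for WSB/EiJ against CAST/EiJ (35.5% and 49.6%). Pairs that share a strain share its libraries. In the standard-diet groups alone, with all libraries in the fit, the counts were smaller for several pairs. They were 0 for NZO/HiLtJ and 1 for CAST/EiJ against C57BL/6J, and 0 and 4 without CAST/EiJ high-fat replicate 1 in the fit. The share over all genes was not counted for these groups.

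The families around the members were read from full lists. Of 16 measured genes of the 17 in the KLF family, 5 rose and 1 fell in the diet average with all libraries, where 28.9% of all genes passed, and 4 rose and 1 fell without CAST/EiJ high-fat replicate 1 (also 28.9%). Those that rose with all libraries included Klf7 (0.40 ± 0.08), Klf5 (1.8 ± 0.48), Klf6 and Klf4 (0.63 ± 0.20, and 0.39 ± 0.12 without that library), and Klf15 fell. In WSB/EiJ against C57BL/6J, 4 were lower in either fit, which with all libraries were Klf14, Klf6, Klf2 (-1.35 ± 0.32) and Klf1 (-1.54 ± 0.44), and 0 were higher, against 29.5% and 42.8% of all genes. Klf5 is known from epithelia and smooth muscle too, whose markers moved with the WSB/EiJ diet groups and were high in CAST/EiJ high-fat replicate 1, as given above. Their part in the Klf5 rise was not tested. In the C/EBP family Cebpd was the 1 of 6 genes that passed in the diet average with all libraries, and Cebpa passed beside it without CAST/EiJ high-fat replicate 1. In the EBF family Ebf4 was the 1 of 4 with all libraries (1.19 ± 0.44, edgeR adjusted p = 0.0493), and it did not pass without that library (0.70 ± 0.36, edgeR adjusted p = 0.152). There Ebf3 (-0.39 ± 0.09, edgeR adjusted p = 0.00479) and Ebf1 passed instead. Of the 3 PPAR genes, Pparg passed in the diet average without that library and did not pass with it. In both fits 28.9% of all genes passed. Against C57BL/6J, Ppara, the receptor of fatty acid oxidation, was higher by 2.04 ± 0.55 in CAST/EiJ (edgeR adjusted p = 0.00683) and by 1.82 ± 0.55 in WSB/EiJ (edgeR adjusted p = 0.0182).

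Among 44 other regulators of adipogenesis, 7 rose and 4 fell in the diet average with all libraries, with a median log2 change of -0.06. This count is near the background, where 28.9% of all genes passed. Those that fell were Stat5a, a transducer of growth hormone and cytokine signals (-0.45 ± 0.11), Ccn5 (-1.48 ± 0.38), Nfia (-0.41 ± 0.11) and Tcf7l2, a factor of the Wnt pathway (-0.35 ± 0.10). Without CAST/EiJ high-fat replicate 1, 7 rose and 9 fell, and those that fell included Rxrg, a partner of PPARG (-0.48 ± 0.09), the glucocorticoid receptor gene Nr3c1 (-0.29 ± 0.06) and Nr1h3, which encodes a liver X receptor (-0.38 ± 0.08). In CAST/EiJ against C57BL/6J, 9 were higher, among them Ppargc1a (1.17 ± 0.25), and 8 lower, among them the corepressor gene Ncor1 (-1.19 ± 0.09), Stat5b (-0.81 ± 0.08) and Stat5a (-1.15 ± 0.16), again near the share over all genes (39%). Without that library 14 were higher and 10 lower (48.8% of all genes).

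Cebpd and Klf6 are known to respond to glucocorticoids or to acute stimulation, so lists of such genes were read beside them. Of 12 immediate early genes, 9 rose and 0 fell in the diet average with all libraries, with a median log2 change of 0.55, where 28.9% of all genes passed in either direction. The count was the same without CAST/EiJ high-fat replicate 1, with a median of 0.56. They included Atf3 (1.04 ± 0.19), Fos (1.27 ± 0.26), Junb (1.16 ± 0.30, and 0.72 ± 0.18 without that library) and Jun (0.49 ± 0.14). Of 10 glucocorticoid-responsive genes, 3 rose and 0 fell, which were Sgk1 (0.56 ± 0.18), Errfi1 (0.59 ± 0.20) and Dusp1 (0.51 ± 0.19), and without CAST/EiJ high-fat replicate 1 the number that rose was 6. The count with all libraries is at the share over all genes (28.9% in both fits). Of 12 clock output genes, Npas2 and Arntl rose and Per3, Tef and Dbp fell with all libraries, and 2 rose and 4 fell without that library. What these lists share with the Cebpd and Klf6 differences was not tested.

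The genes whose levels followed each member most closely over the 24 libraries are given as a description, since the libraries share strain, diet and tissue makeup. Spearman's rho was 0.97 between Cebpa and Lipe, which encodes hormone-sensitive lipase, and 0.97 between Klf6 and Cstb. It was 0.94 between Zfp423 and Col15a1, a collagen gene, and 0.93 between Ebf1 and Naa38. Klf14 was most like Cpne2, Arhgef10 and Igfbp4, at 0.93 for each. The highest values were 0.91 for Klf15 (Lyplal1), 0.90 for Pparg (Trip4), 0.87 for Cebpb (Plin2, a lipid droplet protein), 0.81 for Cebpd (Xrcc4) and 0.78 for Ebf2 (Maged1). Between members, over the 23 libraries without CAST/EiJ high-fat replicate 1, rho was 0.84 for Pparg with Cebpa, 0.81 for Cebpa with Klf15, 0.79 for Klf14 with Zfp423 and 0.73 for Ebf1 with Ebf2.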

How the data were processed

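The authors deposited a table of expected counts per gene, which are whole numbers in the file, and a second table that equals those counts divided by each library's upper quartile of counts above 0 (largest difference 0.0005). The deposited signal values of the second table were used only for that check. The submitters' processing notes name CASAVA 1.8.0, RSEM 1.2.1, Bowtie 0.12.8 and the builds NCBIM37 and mm9, without a role or order, and the settings are not given in the sources used here.

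From the deposited counts, edgeR 4.0.16 in R 4.3.3 was run with TMM scaling, its expression filter by group (20035 of 37991 genes kept) and the quasi-likelihood F test with 1 coefficient per group, and p was adjusted by Benjamini-Hochberg over all genes tested. CPM values were computed by edgeR's cpm function on TMM-scaled library sizes. Marker sums, Epcam and the neighbours of Klf14 were instead given as CPM over the unscaled library total. The same script was tested on simulated data. Symbols came from a table of gene names, which matched 86.6% of the IDs. The coordinates given are those of RefSeq promoter windows on GRCm38.p6, a later build than those in the notes, and none were used for the counts. Alternatives were DESeq2 1.42.0, limma 3.58.1 (voom), other scalings, no filter, subsets of groups and each library left out. The subsets by diet without CAST/EiJ high-fat replicate 1 were added after seeing the data. Intervals on Klf14 ratios are exact 95% intervals on pooled counts and cover counting error only. The p values rest on the spread between mice within groups, estimated for each gene in 1 model over all groups in the fit. A p value for 1 strain therefore also depends on the spread in the other strains. The labels call the 3 mice of a group biological replicates. Within groups, replicate libraries differed beyond counting noise (lowest chi-square per degree of freedom 23.3). Replicate numbers follow the order of the samples and pair nothing.

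The members and lists were chosen with earlier results of these data known. Named were all 10 members and, per list, up to 4 genes per direction by smallest adjusted p, or the 2 highest where none passed. Likeness was ranked over 10730 genes with a mean of at least 5 CPM.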

Additional observations from a re-analysis of the deposited data

How the results depend on the processing

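Of the 24 member differences with a direction that passed with all libraries, 11 passed in every alternative, and none of the 24 changed sign. The number of the 10 members passing for the NZO/HiLtJ diet effect (0 with all libraries) was 2 without the 6 libraries in which Epcam reached 5 CPM and 7 with only the groups compared in the fit. For the CAST/EiJ diet effect (1) it was 2 with DESeq2 and 0 with only the groups compared, and for the WSB/EiJ diet effect (0) it was 1 with DESeq2. Without the 6 Epcam libraries it was 6 for NZO/HiLtJ minus C57BL/6J (1 with all), 7 for CAST/EiJ minus C57BL/6J (3) and 8 for CAST/EiJ minus NZO/HiLtJ (5). In the standard-diet groups alone it was 3 for any strain difference (6), 0 for NZO/HiLtJ minus C57BL/6J, 1 for CAST/EiJ minus C57BL/6J, 2 for CAST/EiJ minus NZO/HiLtJ and 3 for WSB/EiJ minus CAST/EiJ (5). In the high-fat groups alone it was 3 for CAST/EiJ minus NZO/HiLtJ. With CAST/EiJ high-fat replicate 1 left out, NZO/HiLtJ minus C57BL/6J gave 3 in the high-fat and 0 in the standard-diet groups, and WSB/EiJ minus C57BL/6J gave 7 in the high-fat groups. The standard-diet groups then gave 7 for any strain difference, 4 for CAST/EiJ minus C57BL/6J, 5 for CAST/EiJ minus NZO/HiLtJ and 5 for WSB/EiJ minus CAST/EiJ. Leaving out each library in turn, the numbers ran from 0 to 1 for the NZO/HiLtJ, 0 to 2 for the CAST/EiJ and 0 to 4 for the WSB/EiJ diet effect, 2 to 6 for the diet average, 0 to 1 for the interaction, 6 to 9 for any strain difference, 1 to 4 for NZO/HiLtJ minus C57BL/6J, 3 to 5 for CAST/EiJ minus C57BL/6J, 3 to 5 for WSB/EiJ minus C57BL/6J, 5 to 7 for CAST/EiJ minus NZO/HiLtJ, 3 to 4 for WSB/EiJ minus NZO/HiLtJ and 5 to 6 for WSB/EiJ minus CAST/EiJ. The cause of these shifts was not tested, and the subsets also hold fewer libraries. Among these alternatives, the share of all genes passing was counted for the NZO/HiLtJ groups alone and for all groups without CAST/EiJ high-fat replicate 1. For the other settings it was not counted, so whether a count there departs from the share over all genes was not tested. No paired analysis was possible because the replicate numbers follow the order of the samples.

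Signs turned in 98 of 3529 recomputed member differences, none of which had passed with all libraries. Of these 1 passed after turning, Cebpa in WSB/EiJ minus CAST/EiJ (-0.59, edgeR adjusted p = 0.0492). With limma-voom, turned log2 values were Klf14 -0.15 (diet effect in C57BL/6J), Zfp423 0.02 (NZO/HiLtJ minus C57BL/6J), Cebpa -0.43 and Klf15 -0.23 (CAST/EiJ minus C57BL/6J) and Pparg -0.50 and Cebpa -0.28 (CAST/EiJ minus NZO/HiLtJ). Without the 6 Epcam libraries, turned log2 values were Cebpa 0.01, Ebf2 0.12 and Zfp423 0.11 (diet effect in C57BL/6J), Ebf1 0.14 and Ebf2 0.56 (diet effect in CAST/EiJ) and Cebpb 0.06 (CAST/EiJ minus NZO/HiLtJ). In the standard-diet groups alone, turned log2 values were Klf15 0.21 and Zfp423 0.15 (NZO/HiLtJ minus C57BL/6J), Pparg 0.07 (CAST/EiJ minus C57BL/6J) and Pparg 0.26 and Klf15 0.48 (WSB/EiJ minus C57BL/6J). In the standard-diet groups without CAST/EiJ high-fat replicate 1 in the fit, turned log2 values were Klf15 0.21 and Zfp423 0.15 (NZO/HiLtJ minus C57BL/6J), Pparg 0.08 (CAST/EiJ minus C57BL/6J) and Pparg 0.27 and Klf15 0.50 (WSB/EiJ minus C57BL/6J). In the high-fat groups alone, turned log2 values were Cebpa -0.33, Klf6 0.19 and Klf15 -0.34 (CAST/EiJ minus C57BL/6J), Cebpa -0.37 (WSB/EiJ minus C57BL/6J), Pparg -0.06 and Cebpa -0.06 (CAST/EiJ minus NZO/HiLtJ), Pparg -0.20, Cebpa -0.10 and Ebf2 -0.11 (WSB/EiJ minus NZO/HiLtJ) and Pparg -0.14 and Cebpa -0.04 (WSB/EiJ minus CAST/EiJ). In the high-fat groups without CAST/EiJ high-fat replicate 1, turned log2 values were Klf6 0.06 (CAST/EiJ minus C57BL/6J), Cebpa -0.36 (WSB/EiJ minus C57BL/6J), Cebpb 0.18 and Ebf2 0.09 (CAST/EiJ minus NZO/HiLtJ), Pparg -0.19, Cebpa -0.10 and Ebf2 -0.11 (WSB/EiJ minus NZO/HiLtJ) and Pparg -0.70, Cebpa -0.59, Ebf2 -0.20 and Zfp423 -0.08 (WSB/EiJ minus CAST/EiJ). Leaving out each library in turn, the log2 values that crossed 0 ranged as follows. For the diet effect in C57BL/6J, Pparg (0.00 with all libraries) -0.27 to 0.21, Cebpb -0.14 to 0.28, Ebf2 -0.25 to 0.12, Klf14 -0.85 to 0.53, Klf6 -0.16 to 0.08, Zfp423 -0.65 to 0.29, Cebpa -0.43 to 0.01 and Klf15 -0.14 to 0.41. For the diet effect in CAST/EiJ, Ebf2 -0.55 to 0.55, Ebf1 -0.85 to 0.13 and Cebpb -0.19 to 0.51. For the diet effect in WSB/EiJ, Klf14 -0.69 to 0.29, Cebpb -0.10 to 0.08 and Cebpd -0.01 to 0.87. For the diet effect averaged over strains, Ebf2 -0.26 to 0.02. For the difference NZO/HiLtJ minus C57BL/6J, Ebf1 -0.11 to 0.07 and Zfp423 -0.23 to 0.24. For the difference CAST/EiJ minus C57BL/6J, Cebpa -0.22 to 0.37, Klf6 -0.13 to 0.01 and Klf15 -0.05 to 0.42. For the difference CAST/EiJ minus NZO/HiLtJ, Pparg -0.28 to 0.34, Cebpb -0.30 to 0.05 and Cebpa -0.06 to 0.53. For the difference WSB/EiJ minus NZO/HiLtJ, Ebf2 -0.04 to 0.07 and Pparg -0.11 to 0.22. For the difference WSB/EiJ minus CAST/EiJ, Pparg -0.25 to 0.37 and Cebpa -0.24 to 0.35.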

Other observations

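The protein-coding genes next to Klf14, 5 on each side in the order of RefSeq on its own assembly, were read after the low Klf14 values in WSB/EiJ had been seen. Klf14 belongs to an imprinted cluster that also holds Mest, a gene expressed from the paternal copy and known to vary with fat mass. Mest was at 6.04 to 14.2 unscaled CPM in the 6 WSB/EiJ libraries, against 48.6 to 1270 in C57BL/6J, 419 to 550 in NZO/HiLtJ and 7.18 to 467 in CAST/EiJ. The WSB/EiJ libraries were all below those of C57BL/6J, with a log2 difference of -5.73 ± 0.90 (edgeR adjusted p = 0.000121). Copg2, the gene between Mest and Tsga13, was lower in WSB/EiJ than in C57BL/6J by 0.84 ± 0.21 on the log2 scale (edgeR adjusted p = 0.00511), and Cep41 by 0.94 ± 0.11 (edgeR adjusted p = 7.8e-06). On the other side, Mkln1 was higher by 0.30 ± 0.05 (edgeR adjusted p = 0.000227) and Chchd3 by 0.66 ± 0.16 (edgeR adjusted p = 0.00428), while Podxl (-0.05 ± 0.18) and Plxna4 (0.03 ± 0.26) did not pass. Of all genes, 29.5% passed in this comparison. CAST/EiJ against C57BL/6J also had lower Cep41 (-0.58 ± 0.11, edgeR adjusted p = 0.000541) and higher Chchd3 (0.72 ± 0.16, edgeR adjusted p = 0.0013). There Plxna4 was higher (0.73 ± 0.26, edgeR adjusted p = 0.0335), and Mest, Copg2, Mkln1 and Podxl did not pass. The other 3 neighbours, Cpa1, Tsga13 and 1700012A03Rik, did not pass the expression filter.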
